A study of Mus musculus with 12 samples.

Results

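The genes described here carry the B cell receptor signal from the membrane to calcium release, and they are 9 of the 29486 genes in the table of normalized counts. They are Cd79a, Cd79b, Cd22, Cr2, Lyn, Syk, Btk, Blnk and Plcg2, chosen by gene name as known parts of the pathway and found with 1 row each. Their mRNA was measured by sequencing of polyA RNA (mRNAseq) in splenic B cells of C57BL/6Babr mice, in 3 conditions with 4 libraries each. All cells were activated in culture with lipopolysaccharide (LPS), which stimulates B cells through a Toll-like receptor and not through the antigen receptor. The first condition was LPS alone (10 µg/ml, 48 h). In the second, LPS for 48 h was followed by etoposide (20 µM, 4 h), a topoisomerase II inhibitor that causes DNA double-strand breaks. In the third, LPS for 47 h was followed by KU55933 (10 µM), an inhibitor of the DNA damage kinase ATM, for 1 h and then by etoposide (20 µM, 4 h). No library came from cells with KU55933 and no etoposide. Whether cells that received only LPS were kept for the further hours is not in the labels, and the sequencing indexes differ by condition, so that index and condition cannot be told apart.

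The B cell receptor is a membrane immunoglobulin that binds antigen and has almost no signalling part of its own. Its signal passes through the Cd79a and Cd79b chains, which the kinase Lyn phosphorylates and which then bind the kinase Syk. Syk marks the adaptor Blnk, on which Btk activates Plcg2, and Plcg2 makes the messengers that release calcium. Cr2, the complement receptor CD21, lowers the threshold for this signal, and Cd22 restrains it through phosphatases that Lyn's phosphorylation recruits.

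The table holds, for each gene, a fitted mean of the condition multiplied by a factor of the library. Any pair of columns of a condition had the same ratio for every gene, to within 1.4e-14 on the log2 scale. The values therefore carry no spread between replicates, and no difference below was tested against it. Whether the columns of different conditions overlap follows from the fitted means and the library factors, and says nothing of replicates. The column totals ranged from 20739978 to 23935658 with LPS, from 22523516 to 30575195 after etoposide and from 20400994 to 25052093 after KU55933 and etoposide. Columns were divided by median-of-ratios library factors, and a level below is the value after that division, in normalized counts. Log2 ratios are of levels with 1 added. A gene was called lower or higher past a 1.5-fold difference. Intervals are at 95% and cover counting error alone, as if the values were reads, so they are lower limits of the true error. The 9 genes all passed the filter of at least 10 in at least 4 libraries, as did 15579 genes in all. In bulk RNA, fewer cells of a type and less RNA per cell cannot be told apart.

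The promoters of 3 of these genes are printed to place the differences beside the sequence before a RefSeq start of each gene. Cd22 and Cd79a had the largest and the smallest difference with etoposide, and Blnk held the most motif matches. The windows are the 250 bases before a RefSeq start on GRCm38.p6, and capitals mark the motif matches. That start need not be the outermost start of the gene. By the gene positions given below, the Cd22 and Blnk windows lie within the gene and the Cd79a window runs into it.
Cd22 (chr7:30879029-30879278, minus strand): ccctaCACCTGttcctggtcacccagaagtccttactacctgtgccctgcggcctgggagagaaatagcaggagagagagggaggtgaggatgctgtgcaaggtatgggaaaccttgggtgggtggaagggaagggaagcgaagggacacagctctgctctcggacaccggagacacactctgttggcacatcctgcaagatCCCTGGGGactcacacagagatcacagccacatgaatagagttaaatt
Cd79a (chr7:24897247-24897496, plus strand): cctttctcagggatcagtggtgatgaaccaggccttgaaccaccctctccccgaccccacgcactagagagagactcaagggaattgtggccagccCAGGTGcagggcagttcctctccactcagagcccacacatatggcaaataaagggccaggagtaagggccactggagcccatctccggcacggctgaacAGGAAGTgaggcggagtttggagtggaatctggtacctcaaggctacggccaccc
Blnk (chr19:40994222-40994471, minus strand): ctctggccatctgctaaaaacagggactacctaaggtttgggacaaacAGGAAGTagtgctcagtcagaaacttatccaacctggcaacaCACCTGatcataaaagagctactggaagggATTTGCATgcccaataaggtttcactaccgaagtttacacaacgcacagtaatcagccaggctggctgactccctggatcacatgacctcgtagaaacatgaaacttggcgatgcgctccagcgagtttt
Motifs bound by known B cell factors, and the TATAAA motif, were searched on both strands by their letters. RefSeq promoters were matched for 7 of the 9 genes, with 8 promoters in all because Syk has 2, while Cd79b and Lyn have no entry. An exact match to the EBF letters CCCNNGGG lay 48 bases before the start of Cd22 and in no other promoter of the set. Of all 32851 promoters, 11.8% held one. An Ets motif (AGGAAGT) lay 55 bases before the start of Cd79a and 202 bases before that of Blnk, against 7.69% of promoters. Blnk alone held an octamer (ATGCAAAT), 130 bases before its start, against 1.60% of promoters. The E box CACCTG was found in 7 of the 8 promoters, against 17.2% of all promoters. By gene, it was in 6 of the 7 matched genes, all but Btk. Neither the E box CAGCTG (13.0% of promoters) nor the TATAAA motif (12.4%) was in any of the 8 promoters. A match is a run of letters and not a measured binding site. Sites that depart from these letters were not searched, so a promoter without a match need not lack a site.

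All 9 genes had lower mRNA levels with etoposide than with LPS alone, and each was past 1.5-fold, although Cd79a, Cd79b and Btk were not past it under each of the 7 scalings compared. Of all tested genes, 20.1% were lower past the same fold and 19.7% higher, and among the 5456 genes with a mean level of at least 1000, as these 9 have, 23.8% were lower and 8.71% higher. The median log2 ratio of the 9 was -1.30, against -0.11 for all tested genes, so that their median lay 1.19 below the median gene on the log2 scale. The inhibitory receptor Cd22 had the largest difference, at 16.7% of its LPS level. The receptor chains Cd79a and Cd79b had the smallest, at 65.9% and 58.7%. Past 2-fold, 7 of the 9 were lower and 0 higher, against 7.44% and 13.1% of all tested genes.

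**Figure D1:**
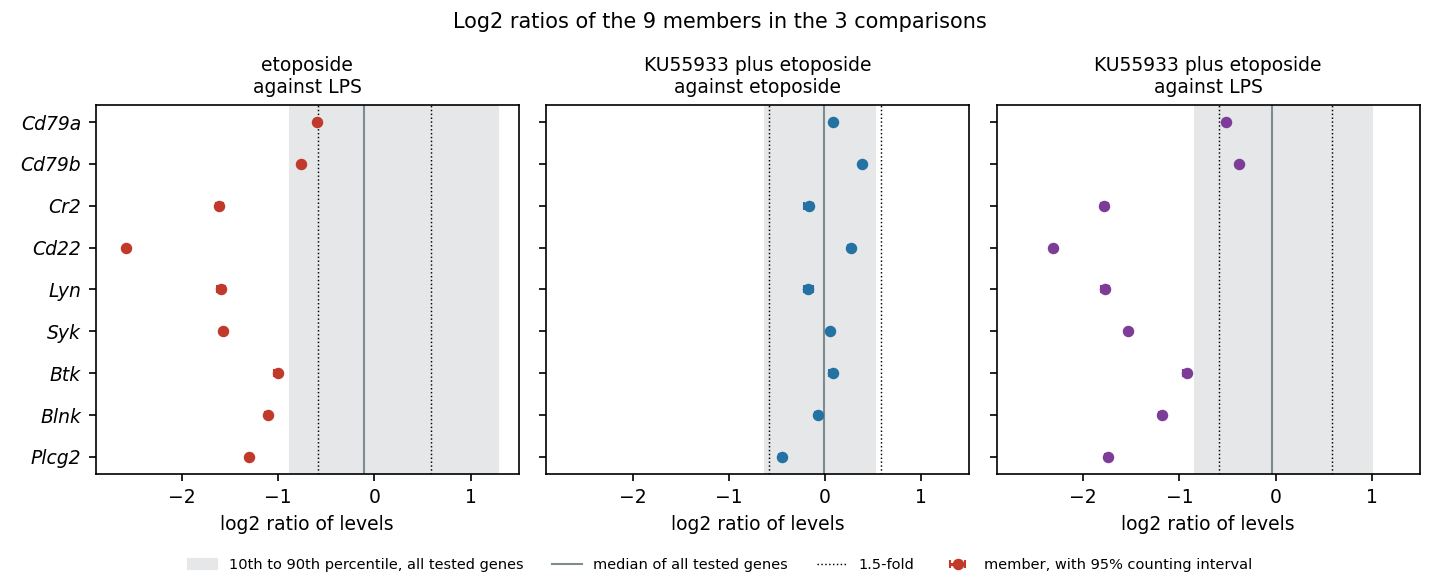
Log2 ratio of levels (x axis) for the 9 genes (rows) in the 3 comparisons, 1 panel each. Points are the genes with 95% counting intervals, most of them narrower than the point, the grey band runs from the 10th to the 90th percentile of all 15579 tested genes, the solid line is their median and the dotted lines mark 1.5-fold. With etoposide against LPS, 7 genes sit left of the band, Cd22 farthest at -2.58, and with KU55933 plus etoposide against etoposide all 9 sit within it.

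Cd79a and Cd79b encode the Ig-alpha and Ig-beta chains, which carry the tyrosine motifs through which the receptor signals. Cd79a (ENSMUSG00000003379, chr7:24897381-24902197) had deposited values of 18251, 20248, 21063 and 18979 in the 4 LPS libraries, 15200.1, 17037, 20634 and 16516 with etoposide, and 14713, 16591, 17774 and 18067 with KU55933 and etoposide. The third etoposide library, which had the highest total of all, lay within the LPS values, and the conditions overlapped before division by the library factor. After it, the level of Cd79a was 23154 with LPS and 15261 with etoposide, a log2 ratio of -0.60 (counting interval -0.62 to -0.59). This is just past the 1.5-fold line, and 19.4% of tested genes had a lower ratio.

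For Cd79b (ENSMUSG00000040592, chr11:106311341-106314762), the deposited values were 17612, 19540.1, 20326 and 18316 with LPS, 13064, 14643, 17734 and 14195 with etoposide, and 15638, 17635, 18892 and 19204 with KU55933 and etoposide. The highest etoposide value lay just above the lowest LPS value, and the values with KU55933 overlapped those of both other conditions. Its level was 22344 with LPS and 13116 with etoposide, with a log2 ratio of -0.77 (-0.78 to -0.75). Relative to the median of all tested genes, the log2 differences of Cd79a and Cd79b were -0.49 and -0.66.

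Cr2 and Cd22 are surface proteins that tune the receptor in opposite directions. Cd22 (ENSMUSG00000030577, chr7:30865402-30880342) is a lectin of the Siglec family that recruits the phosphatase Ptpn6. It had deposited values of 19709, 21866, 22746 and 20496 with LPS, 4156, 4658, 5642 and 4516 with etoposide, and 4586, 5172, 5541 and 5632 with KU55933 and etoposide. Every LPS value was above every value of the other conditions, which overlapped each other. The level was 25005 with LPS and 4172 with etoposide, 5.99-fold lower, with a log2 ratio of -2.58 (-2.61 to -2.56). A lower ratio was found for 0.0642% of tested genes. An antisense gene, Gm29439, shares 479 of its exonic bases with Cd22 and had a level below 1 in each condition.

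Cr2 (ENSMUSG00000026616, chr1:195136811-195176716) binds fragments of complement on antigen. Its deposited values were 4490.1, 4981, 5182 and 4669 with LPS, 1856, 2080.2, 2519 and 2017 with etoposide, and 1511, 1704, 1826 and 1856 with KU55933 and etoposide. The LPS values did not overlap the others, while the highest value with KU55933 reached the lowest with etoposide alone. From LPS to etoposide the level went from 5696 to 1863, a log2 ratio of -1.61 (-1.65 to -1.58).

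**Figure D2:**
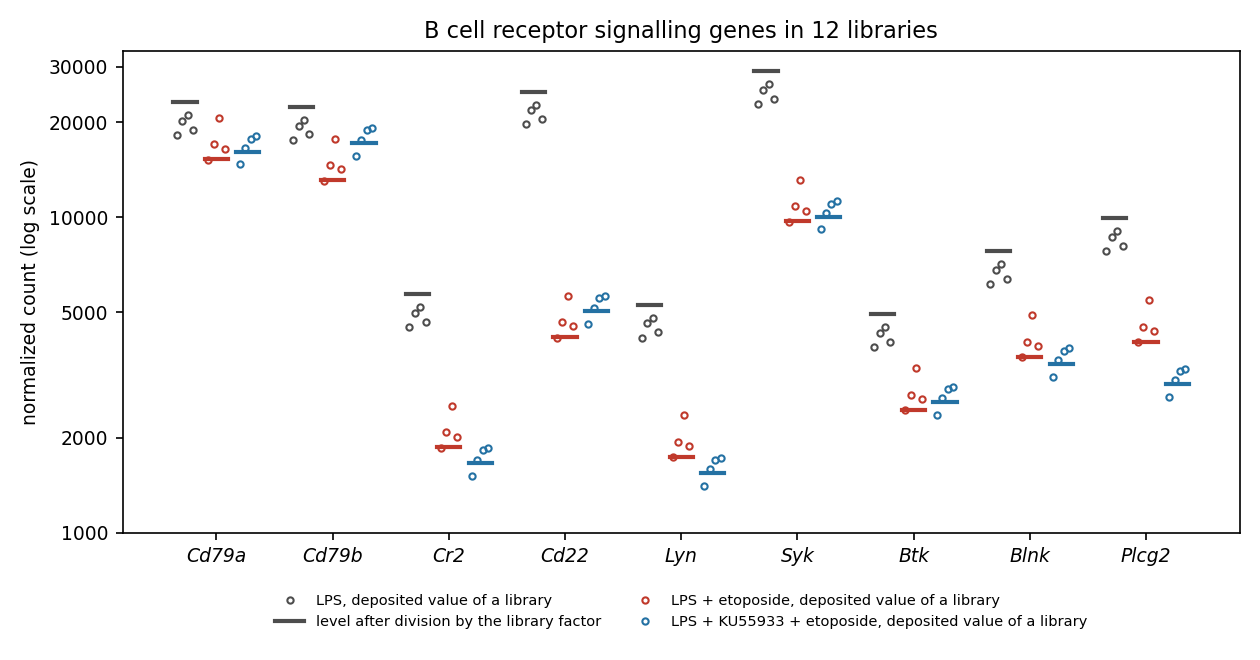
Normalized counts (y axis, log scale) of the 9 genes in 12 libraries. Circles are the deposited values of the 4 libraries of a condition and bars are the level after division by the library factor, in grey for LPS, red for LPS with etoposide and blue for LPS with KU55933 and etoposide. Within a condition the circles of every gene have the same pattern, because the table holds fitted means. LPS circles lie above the rest for all genes but Cd79a and Cd79b, whose circles overlap between conditions. Such overlap, or its absence, follows from the fitted means and the library factors and does not measure replicate spread. The share of all tested genes without overlap is not given here.

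Lyn, Syk and Btk are the kinases that follow each other in the signal. Lyn (ENSMUSG00000042228, chr4:3678115-3813122), a Src family kinase that acts on activating and inhibitory receptors, had deposited values of 4154, 4608, 4794 and 4319.6 with LPS, 1735, 1945, 2355 and 1885 with etoposide, and 1408, 1587, 1701 and 1729 with KU55933 and etoposide. No LPS value overlapped the others, and the 4 values with KU55933 lay below the lowest with etoposide alone. The level was 5269.7 with LPS and 1742 with etoposide, with a log2 ratio of -1.60 (-1.64 to -1.56). The opposite-strand lincRNA Gm26857 shares 248 exonic bases with Lyn and had levels of 13.4, 16.5 and 18.1 in the 3 conditions.

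Syk (ENSMUSG00000021457, chr13:52583173-52648792) docks on the phosphorylated Cd79a and Cd79b chains. In the LPS libraries its deposited values were 22863, 25365, 26386 and 23776, against 9668, 10837, 13125 and 10505 with etoposide and 9155, 10323, 11060 and 11242 with KU55933 and etoposide. The LPS values stood apart, and the other conditions overlapped each other. Its level was 29005 with LPS, the highest of the set in total counts, and 9707 with etoposide, with a log2 ratio of -1.58 (-1.60 to -1.56).

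Btk (ENSMUSG00000031264, chrX:134542336-134583570), the Tec family kinase that activates Plcg2, had deposited values of 3881, 4306, 4479 and 4036 with LPS, 2443, 2738, 3316 and 2654 with etoposide, and 2364, 2665, 2855 and 2902 with KU55933 and etoposide. The LPS values were again above all others. Its level was 4924 with LPS and 2453 with etoposide, so that 49.8% remained, and the log2 ratio was -1.01 (-1.04 to -0.97).

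Blnk and Plcg2 connect the kinases to calcium. Blnk (ENSMUSG00000061132, chr19:40928927-40994535) is the scaffold that brings Btk and Plcg2 together. It had deposited values of 6149, 6822, 7097 and 6395 with LPS, 3597, 4032, 4883 and 3909 with etoposide, and 3126, 3525, 3777 and 3839 with KU55933 and etoposide. The LPS values did not overlap the others. Its level was 7801 with LPS and 3612 with etoposide, with a log2 ratio of -1.11 (-1.14 to -1.08).

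Plcg2 (ENSMUSG00000034330, chr8:117498291-117635142) is the phospholipase that produces inositol trisphosphate and diacylglycerol. The deposited values were 7826, 8682, 9032 and 8138 with LPS, 4018, 4503, 5454 and 4366 with etoposide, and 2699, 3043, 3260.1 and 3314 with KU55933 and etoposide. In Plcg2, as in Lyn, the 3 conditions did not overlap at all. The level was 9928 with LPS and 4034 with etoposide, with a log2 ratio of -1.30 (-1.33 to -1.27).

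The comparison of KU55933 plus etoposide with etoposide sets cells with the ATM inhibitor beside cells without it. No library had KU55933 without etoposide, and the indexes differ by condition. ATM activity therefore cannot be told apart here from other effects of the inhibitor or from the index. None of the 9 genes was past 1.5-fold in either direction, against 10.9% of tested genes lower and 7.86% higher, and among genes with a mean level of at least 1000, 4.86% lower and 4.95% higher. Past 2-fold, 4.3% of tested genes were lower and 1.96% higher. The median log2 ratio of the 9 was 0.050. Cd79b was the highest, with levels of 13116 and 17161 and a log2 ratio of 0.39 (0.37 to 0.40), and Cd22 followed at 0.27 (0.24 to 0.30). Plcg2 was the lowest, with levels of 4034 and 2961 and a log2 ratio of -0.45 (-0.48 to -0.41). Cr2 and Lyn were both at -0.17, and Blnk, Syk, Btk and Cd79a lay between -0.074 and 0.081, with signs for Cd79a, Syk and Btk that turn with the scaling. How these ratios compare with the spread between replicates cannot be read from fitted means.

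With KU55933 plus etoposide, 7 of the 9 genes were lower than with LPS past 1.5-fold, against 18% of tested genes lower and 18.7% higher, or 23.1% and 7.7% among genes with a mean level of at least 1000. The exceptions were Cd79a, at 69.7% of its LPS level, and Cd79b, at 76.8%. The lowest ratio was again that of Cd22, at -2.31 (-2.33 to -2.29), with a level of 5033. Cr2 at -1.78, Lyn at -1.77, Plcg2 at -1.74 and Syk at -1.53 followed, then Blnk at -1.19 and Btk at -0.92. The median was -1.53, against -0.039 for all tested genes, and 6 of the 9 were lower past 2-fold, against 6.85% of tested genes lower and 10.1% higher. This comparison shares its LPS libraries with the first and its KU55933 libraries with the second, so the 3 sets of ratios are not independent. Set beside the etoposide difference of each gene, the log2 difference from LPS was 49.5% as large for Cd79b and 86.5% for Cd79a. It was 89.5% for Cd22, 134% for Plcg2, and between 92.0% and 111% for the other 5. These shares depend on the scaling. As deposited, Cd79a was at -0.23 with KU55933 plus etoposide and -0.18 with etoposide, but at -0.19 and -0.34 with quantile normalization. Cd79b was at -0.087 and -0.35 as deposited, and at -0.073 and -0.48 with quantile normalization.

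Per kilobase of exon, a rough scale on which genes can be set side by side, the receptor chains led in every condition. The length was the union of all annotated exons of a gene, not that of the expressed transcripts. The order of the genes and the ratios between them can depend on this choice. Levels per kilobase were 15892 for Cd79a and 15615 for Cd79b with LPS, followed by Cd22 at 4959, Syk at 3098, Plcg2 at 2310, Btk at 1564, Blnk at 1302, Lyn at 1294 and Cr2 at 702. Blnk and Lyn were neighbours at nearly the same level. With etoposide the order changed below the receptor chains, and Cd22 moved from the third place to the fifth, at 828, behind Syk at 1037 and Plcg2 at 939. Lyn and Cr2 stayed in the last 2 places in all 3 conditions.

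Ratios between genes within a condition do not depend on the library factors. Cd79a over Cd79b, the chains that pair in the receptor, was per kilobase 1.02 with LPS, then 1.14 after etoposide and 0.924 after KU55933 and etoposide. Cd79a over Cd22 was 3.20, 12.7 and 11.1 in the same order. Syk over Lyn stayed closer, at 2.39, 2.42 and 2.83. The highest gene over the lowest went from 22.6 with LPS to 45.6 with etoposide and 58.7 with KU55933 and etoposide.

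The rest of the pathway was followed in 87 other genes in 6 groups by role, of which 86 passed the filter (Cd5 did not). With etoposide, 45 of the 86 (52.3%) were lower than with LPS past 1.5-fold and 4 (4.65%) were higher, with a median log2 ratio of -0.63. The shares were 20.1% and 19.7% of all tested genes. They were 23.8% and 8.71% of genes with a mean level of at least 1000, which most but not all of the 86 reach. With the columns as deposited, 29 were lower and 9 higher, against 7.35% and 33.2% of tested genes. The share lower was highest among adaptors and exchange factors, at 15 of 22, and 0 of the 22 were higher. Bank1, an adaptor of Lyn and calcium channels, was the lowest of them, with levels of 8435 and 1394 and a log2 ratio of -2.60. Sh3kbp1 at -2.07, Vav2 at -1.82 and Grb2 at -1.80, which link receptors to small GTPases and to receptor uptake, came next. Rasgrp1, Rasgrp3, Sh3bp2 and Lat2 were also past 2-fold, between -1.35 and -1.06.

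Inhibitory receptors and phosphatases were lower in 11 of 18 (61.1%) and higher in 1 (5.56%), against 20.1% and 19.7% of all tested genes. The lowest, Lair1 at -2.71, rests on low levels (41.0 with LPS and 5.43 with etoposide). Ptpn6, the phosphatase that acts with Cd22, was at -1.46, with levels of 11020 and 4000.4, and Inpp5d, the inositol phosphatase of Fcgr2b signalling, at -1.32. Csk, which inhibits Lyn, was at -1.49, and Pag1, which anchors Csk, at -1.48. Pirb at -2.01, Ceacam1 at -1.30 and Siglecg, a relative of Cd22, at -1.28 were past 2-fold as well. The gene on the high side was Sla2, at 0.60 from levels of 32.6 and 50.04, and past 1.5-fold in 6 of the 7 scalings.

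Of 16 kinases, 7 were lower (43.75%) and 0 higher, against 20.1% and 19.7% of all tested genes. Fgr at -1.85, Prkcb at -1.61, Blk at -1.48 and Pik3cd at -1.03 were past 2-fold, and Prkcb, which diacylglycerol activates, had levels of 11027 and 3600.5. In the calcium and transcription arm, 5 of 16 were lower (31.25%) and 2 higher (12.5%). This is near the 23.8% and 8.71% of genes with a mean level of at least 1000. Mef2c, a transcription factor downstream of the receptor, was lowest at -2.20, followed by the calcineurin subunit Ppp3ca at -1.62 and the inositol trisphosphate receptors Itpr1 at -1.41 and Itpr3 at -1.15. The calcium channel subunit Orai2 was higher at 1.16, and Nfatc2 at 0.70.

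Among the 8 partners of the antigen receptor and co-receptor, 5 were lower (62.5%) and 1 was higher (12.5%), against 20.1% and 19.7% of all tested genes. The phosphatase CD45, encoded by Ptprc, was at -1.42, Ighd, the IgD heavy chain, at -1.31, and Cd37, a tetraspanin, at -1.02. Ms4a1, which encodes CD20, was at -0.70 and past 1.5-fold in 3 of the 7 scalings. Cd81, another tetraspanin of the B cell surface, was the highest gene of the whole list, with levels of 3392 and 9740.2 and a log2 ratio of 1.52. Ighm, the heavy chain of IgM, was at -0.33, without passing 1.5-fold.

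**Figure D3:**
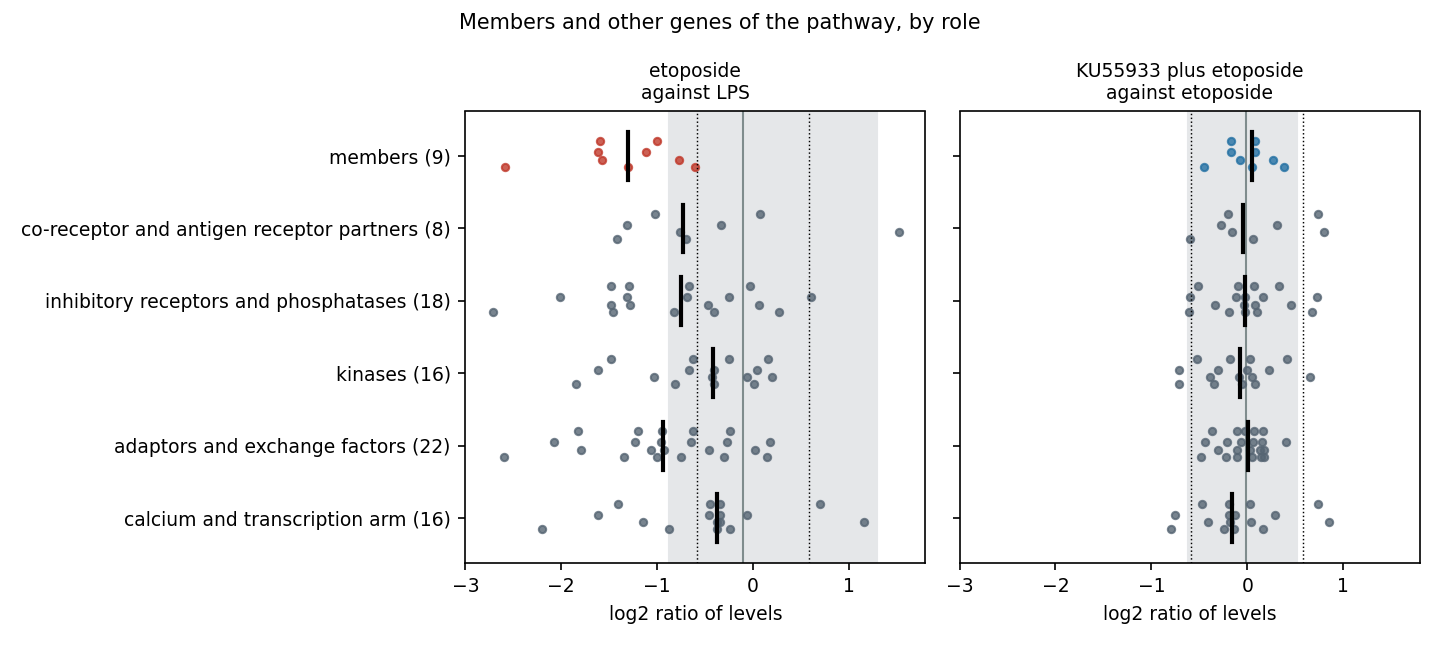
Log2 ratio of levels (x axis) of the 9 genes, in colour, and of other pathway genes in 5 of the groups, in grey, by role (rows, with the number of genes). Each point is a gene, the black bar is the median of its row, the grey band runs from the 10th to the 90th percentile of all tested genes and the dotted lines mark 1.5-fold. Medians with etoposide against LPS run from -1.30 for the 9 genes to -0.37 for the calcium and transcription arm, and with KU55933 plus etoposide against etoposide all row medians lie between -0.16 and 0.050.

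With KU55933 plus etoposide against etoposide, 7 of the 86 genes were lower past 1.5-fold and 7 higher (8.14% each), and 0 were past 2-fold. At 1.5-fold the shares were 10.9% and 7.86% of all tested genes, and 4.86% and 4.95% of genes with a mean level of at least 1000. With the columns as deposited the counts were 11 and 5, against 15.0% and 5.16% of tested genes. The lowest were Nfatc2 at -0.80, Nfatc1 at -0.75 and Tec at -0.71, the first 2 being transcription factors that calcineurin releases. Orai1 at 0.85 and Ighd at 0.80 were the highest. Against LPS, 45 of the 86 were lower with KU55933 plus etoposide and 4 higher, with a median of -0.61. The shares were 18% and 18.7% of tested genes, and 23.1% and 7.7% of those with a mean level of at least 1000. With the columns as deposited the counts were 32 and 6, against 8.96% and 29.6%. Lair1 at -3.05, Bank1 at -2.80 and Mef2c at -2.44 were the lowest, and Cd81 at 1.25, Orai2 at 1.20 and Sla2 at 0.77 the highest. Genes past 2-fold in this comparison and not in the first were Ms4a1, Vav1, Tec, Nfatc1 and Vav3, between -1.29 and -1.08, while Ighd, Cd37, Siglecg, Itpr3 and Pik3cd were among those past it in the first only.

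The labelled cell type was checked on markers. All 7 B cell markers passed the filter, and all 7 were lower with etoposide than with LPS, except that Cd74 and Ighm turned to 0.11 and 0.092 with the columns as deposited. The transcription factors Pax5, at -2.39 from levels of 5749 and 1095, and Ebf1, at -2.35 from 4670.4 and 917, were the lowest of them, while Cd74, at -0.31, and Ighm differed least. The summed level of the 7 was 524359 with LPS, then 396059 after etoposide and 413706 after KU55933 and etoposide. The summed level of the 9 receptor signalling genes was 133128, 55961 and 60574. The part of these B cell markers in the levels of the 9 genes was not tested.

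The defining markers of T cells and neutrophils were near 0, with Cd3e, Cd4 and Cd8a between 0.724 and 2.03 and S100a8 and Ly6g below 1 in each condition, while Mpo, a neutrophil granule enzyme, had levels of 1.31, 13.6 and 3.33. Of T cell markers, 8 of 10 were under 10 in every condition and the sum of the list went from 477 with LPS to 334 with etoposide and 305 with KU55933 and etoposide, most of it Lck. For neutrophils 6 of 8 were under 10 (most abundant Csf3r over the 3 conditions, summed level 17.2, 33.6 and 23.4), and for NK cells 3 of 4 in the table (most abundant Prf1, summed level 24.8, 28.01 and 25.3). Macrophage and monocyte markers summed to 5779, 4563 and 4255, most of it Mpeg1, with 5 of 12 under 10. Of the 7 that passed the filter, 3 were higher past 1.5-fold with etoposide than with LPS and 1, Itgam, was lower (-0.86). Of all tested genes 19.7% were higher and 20.1% lower. The 3 higher were Cd14 (5.37, 23.6 and 40.4 in the 3 conditions), Cd68 (108, 206 and 174) and Csf1r (4.33, 10.1 and 9.67), so the sum followed Mpeg1 and not these. Cd14 passed the filter only through the treated conditions and Csf1r only through etoposide, so their direction was partly set by the filter. Dendritic cell markers summed to 3061, 1864 and 3386, most of it Flt3, with 3 of 6 under 10. Flt3 was lower with etoposide (-0.85), while Zbtb46 (107, 177 and 405) and Xcr1 (42.8, 68.1 and 45.01) were higher past 1.5-fold. Erythroid markers summed to 227, 182 and 116, with 4 of 7 under 10 and Hbb-bt the most abundant. Among plasma cell markers the sum was 25957, 25248 and 15963, with 1 of the 6 in the table under 10, and Irf4, which activated B cells also express, was the most abundant. Of the 5 that passed the filter, 1 was higher past 1.5-fold with etoposide and 1 lower (20% each), with a list median of 0.0098. This is near the 19.7% and 20.1% of all tested genes. The higher was Sdc1, which plasma cells carry on their surface, with levels of 144, 1906 and 634, and the lower was Xbp1 at -0.61, while Prdm1 was at -0.55. The part of these lists in the levels of the 9 genes was not tested.

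Genes near the median pair of log2 ratios of the 9 against LPS were sought among 10867 genes with a mean level of at least 100. The pair was -1.30 for etoposide and -1.53 for KU55933 with etoposide, and the distance was Euclidean. The first median is the ratio of Plcg2 and the second that of Syk, so no gene of the 9 has this pair. These ratios rest on 3 fitted conditions. The nearest 5 were Clasp1, a microtubule-binding protein, Gm14730, Gm5940, Fcamr, a receptor for IgM and IgA, and Tmem154, at distances from 0.043 to 0.048. Clasp1 had levels of 4829, 1965 and 1623, and Fcamr of 321, 128 and 107.

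The library factors set the size of these differences, and other scalings of the columns were compared. Under 7 scalings, all 9 were below 0 with etoposide against LPS in each. Cd22, Cr2, Lyn, Syk, Blnk and Plcg2 were past 1.5-fold in all 7, Btk in 6, Cd79b in 4 and Cd79a in 1, the scaling used above. The ratio of Cd79a ran from -0.60 to -0.18, that of Cd79b from -0.77 to -0.35 and that of Cd22 from -2.58 to -2.16. The scaling used above gave the lowest ratio of the 7 for each gene in this comparison. With the columns as deposited, the median of all tested genes was 0.42 higher, with library totals 0.22 higher and with factors set on genes with a mean of at least 100 it was 0.17 higher. Relative to the median tested gene, the median of the 9 was -1.19 under each scaling but quantile normalization, which gave -0.84. The other scalings differ only by a factor per column, which shifts all genes alike, so their agreement here was fixed in advance. The share of tested genes lower and higher past 1.5-fold was 7.35% and 33.2% with the columns as deposited, 11.9% and 25.3% with library totals and 21.7% and 17.4% with quantile normalization, in place of 20.1% and 19.7%. It was 13.5% and 24.1% with factors from the genes of a mean of at least 100, and 16.1% and 22.0% with factors set on the tested genes.

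In KU55933 plus etoposide against etoposide no gene of the 9 was past 1.5-fold under any of the 7 scalings. The signs of Cd79a, Syk and Btk turned below 0 with the columns as deposited (-0.047 for Cd79a, -0.079 for Syk and -0.048 for Btk), and those of the other 6 did not turn. The shares lower and higher among tested genes were then 15.0% and 5.16%. Against LPS, KU55933 plus etoposide left Cd22, Cr2, Lyn, Syk, Btk, Blnk and Plcg2 past 1.5-fold in all 7 scalings and Cd79a and Cd79b in 0. There the shares lower and higher were 10.4% and 26.8% with library totals, 8.96% and 29.6% with the columns as deposited and 13.3% and 22.7% with factors set on genes with a mean of at least 100.

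**Figure D4:**
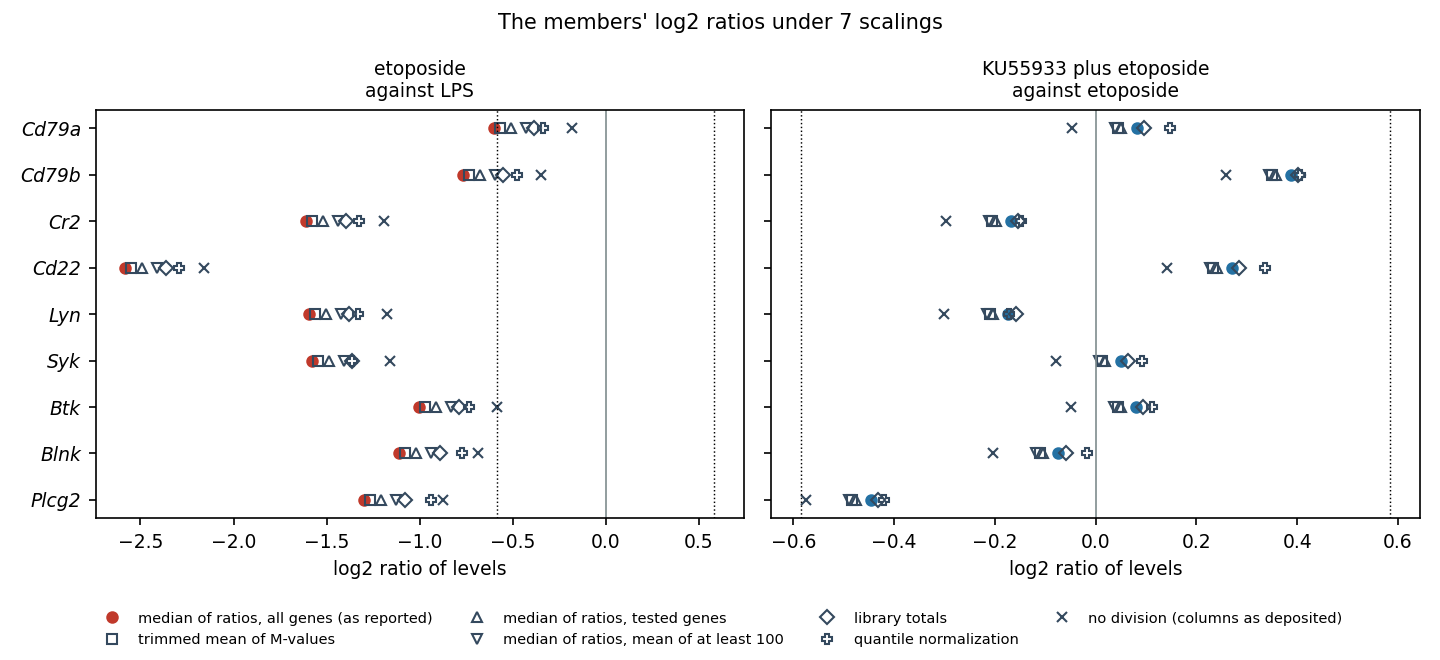
Log2 ratio of levels (x axis) of the 9 genes (rows) under 7 scalings of the columns, 1 symbol each, for etoposide against LPS and for KU55933 plus etoposide against etoposide. Filled circles are the scaling used in the text, and dotted lines mark 1.5-fold. In the first panel every symbol lies below 0 and the filled circle is the lowest of its row, and in the second panel every symbol lies within 1.5-fold.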

How the data were processed

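Total mRNA from LPS-activated splenic B cells was sequenced in 12 libraries. The authors trimmed reads with Trim Galore and cutadapt 1.2.1, mapped them to GRCm38 with TopHat2 2.0.12, counted Ensembl genes by HTSeq and used DESeq2 1.6.3 with size factor correction (per the labels and the study's methods). The strand setting of the counting is not given in the sources used here. The deposited table holds a signal per gene and library, which the authors call normalized counts and which is a fitted mean of the condition times a library factor. The 3 deposited comparison tables hold the authors' own means, fold changes, standard errors, statistics and p-values and were not used.

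Columns were divided by median-of-ratios factors over all genes above 0 in every column. Genes were tested where their level was 10 or more in 4 or more libraries, a pseudocount of 1 was used, and a 1.5-fold difference was the call. The planned limma test, with or without a replicate block, needs a value per replicate and could not be fitted to means. Counting intervals are exact conditional binomial intervals at 95% on the summed columns. Positions and exonic lengths come from GENCODE M21 (GRCm38) and promoters from RefSeq (GRCm38.p6). The functions were tested on simulated data (Python 3.11.15, pandas 2.3.3, numpy 2.4.6 and scipy 1.17.1), and matplotlib 3.10.9 drew the figures.

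The 9 genes, the pathway, marker and motif lists and the alternatives were chosen with earlier results of these data known. Of the other pathway genes, the 3 highest and 3 lowest per comparison and those past 2-fold are named by rule. So are the 5 genes nearest to the median pair and the most abundant marker of each list. Results for some genes of these lists are not reported here, although the counts include them. Ighm, Pax5, Ebf1, Cd74, Sdc1, Cd3e, Cd4, Cd8a, S100a8, Ly6g, Mpo, Cd14, Cd68, Csf1r, Itgam, Zbtb46, Xcr1, Xbp1 and Prdm1, and, with etoposide against LPS, Ms4a1 and Sla2, were chosen after their values were seen. The alternatives were other scalings, pseudocounts of 0.5 and 5, no filter or a minimum of 50, a 2-fold call and the omission of each replicate number.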

Additional observations from a re-analysis of the deposited data

How the results depend on the processing

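The medians of the 9 genes kept their direction in etoposide against LPS and in KU55933 plus etoposide against LPS under every alternative run, and their size moved with the scaling. In etoposide against LPS the median of -1.30 became -1.08 with library totals, -1.27 with a trimmed mean of M-values, -0.94 with quantile normalization, -0.88 with the columns as deposited and -1.13 with factors from genes with a mean of at least 100. Factors set on the tested genes, chosen after the data were seen, gave -1.21. In KU55933 plus etoposide against LPS the median of -1.53 became -1.30 with library totals, -1.27 with quantile normalization, -1.24 as deposited, -1.40 with genes of a mean of at least 100 and -1.47 with the tested genes. In KU55933 plus etoposide against etoposide the median of 0.050 became 0.012 with a trimmed mean of M-values, 0.092 with quantile normalization, 0.0064 with genes of a mean of at least 100 and 0.019 with the tested genes, and it was -0.079 as deposited. With a 2-fold call, 31, 0 and 30 of the other pathway genes were past it in place of 49, 14 and 49 past 1.5-fold, in the order etoposide against LPS, KU55933 plus etoposide against etoposide, and KU55933 plus etoposide against LPS. Pseudocounts and filters hardly moved the medians of the 9, which was fixed in advance because no level of the 9 was below 1545. Leaving out each replicate number in turn gave medians from -1.30 to -1.30, from 0.050 to 0.050 and from -1.53 to -1.53, which follows from fitted means and says nothing of replicate spread. No paired analysis was possible because the columns hold no value of their own for a replicate and the results come from no test. The cause of the differences between scalings was not tested. The lowest level among the 9 genes was 1545, so that counting error was small beside the scaling, and the spread between replicates is the limit these values leave unmeasured.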
